A study of Mus musculus with 4 samples.

Results

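The kinases that phosphorylate the arginine- and serine-rich (SR) splicing proteins were followed through Arglu1 knockdown and dexamethasone (Dex) treatment in mouse Neuro-2a (N2a) neuroblastoma cells. The set was fixed by gene symbol and holds 9 genes of the 22667 listed: Clk1, Clk2, Clk3, Clk4, Srpk1, Srpk2, Srpk3, Dyrk1a and Dyrk1b. Reads were counted for 8 of the 9, and 7 of them reached the minimum of 75 reads summed over the 4 libraries, as did 12497 genes in all. The splicing files list 59 events for these genes, of which 51 could be compared, among 57183 in the whole series. A splicing event was compared where all 4 libraries had a PSI (percent spliced in) and at least 3 had a coverage score of LOW or better.

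All 4 groups were N2a cells transfected with siRNA for 48 h and then treated for 4 h. The siControl Veh group received non-targeting siRNA and ethanol vehicle, siControl Dex the same siRNA and 100 nM Dex, siArglu1 Veh an Arglu1 siRNA and vehicle, and siArglu1 Dex the Arglu1 siRNA and 100 nM Dex. ARGLU1 is an arginine- and glutamate-rich nuclear protein that acts both as a coactivator of the glucocorticoid receptor and in splicing, and Dex is a synthetic agonist of that receptor. The RNA of 3 cultures was pooled into 1 polyA library per group, so that no pair of libraries has a replicate and the interval of a difference covers counting error only. Where values are given in pairs, the vehicle library comes first and the Dex library second.

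The libraries held 66074574 to 86541444 reads on genes. Arglu1 reads scaled to siControl were 26.4% (95% interval 25.2 to 27.5) in vehicle and 22.5% (21.7 to 23.4) in Dex, which checked the labels. Of 13 fixed markers of N2a and sympathoadrenal cells, 10 reached 1 cRPKM (an RPKM, reads per length and depth, corrected for mappable positions) in every library. Their summed level was 1396 to 1415 cRPKM in siControl and 1866 to 1886 cRPKM in siArglu1. The summed markers of glia, fibroblasts, endothelium, immune cells and epithelium did not exceed 1.2 cRPKM each in any library, with Olig2, Aqp4, Kdr and Ptprc at 0.

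SR proteins enter the nucleus and bind pre-mRNA according to how heavily their arginine-serine repeats are phosphorylated. The SRPK kinases act mainly in the cytoplasm and load the repeats with phosphate before import. The CLK kinases are nuclear, phosphorylate both serine/threonine and tyrosine, and release SR proteins from speckles. CLK genes also regulate themselves: their pre-mRNAs can leave out an exon upstream of the kinase domain, which yields a transcript without an intact kinase. DYRK1A and DYRK1B are related kinases of the same CMGC group, and DYRK1A phosphorylates several SR proteins in speckles.

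The exons on which the splicing results turn are shown first. All were read from GENCODE M21 transcripts (GRCm38), after each mm9 exon of the files had been matched by gene, exon length and the length of both flanking introns, or of the single shared flanking intron for exons with 2 alternative sites. Exon 4 of Clk1 and of Clk4 had 91 nt each and was identical at 85 of 91 positions (93.4%). The 6 positions that differ are in capitals.
Clk1 exon 4, chr1:58420121-58420211, minus strand: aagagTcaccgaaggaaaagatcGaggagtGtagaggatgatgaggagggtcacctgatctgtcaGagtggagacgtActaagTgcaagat
Clk4 exon 4, chr11:51273078-51273168, plus strand: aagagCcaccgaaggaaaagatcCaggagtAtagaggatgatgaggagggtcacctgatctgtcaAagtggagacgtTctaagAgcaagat

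In Clk2 the same position in the gene, exon 4 of 13, had 85 or 88 nt, depending on which of 2 neighbouring acceptors was used. The longer form is shown with the 3 nt between the acceptors in capitals.
Clk2 exon 4, chr3:89169615-89169702, plus strand: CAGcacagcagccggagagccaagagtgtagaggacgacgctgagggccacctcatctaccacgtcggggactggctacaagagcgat

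Exon 7 of 13 had 167 nt in both Clk1 and Clk2 and was identical at 110 positions (65.9%). Capitals mark the 57 positions that differ.
Clk1 exon 7, chr1:58417013-58417179, minus strand: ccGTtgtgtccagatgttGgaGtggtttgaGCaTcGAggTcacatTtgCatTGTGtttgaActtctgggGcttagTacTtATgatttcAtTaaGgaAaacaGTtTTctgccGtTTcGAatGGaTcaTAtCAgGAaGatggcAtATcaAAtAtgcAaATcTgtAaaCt
Clk2 exon 7, chr3:89173377-89173543, plus strand: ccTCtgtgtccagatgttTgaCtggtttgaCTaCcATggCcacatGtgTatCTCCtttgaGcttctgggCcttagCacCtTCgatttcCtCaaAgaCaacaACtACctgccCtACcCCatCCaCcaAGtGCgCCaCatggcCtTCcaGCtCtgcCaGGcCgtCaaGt

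Srpk1 and Srpk2 each carry a 26-nt exon, exon 9 of 16 in Srpk1 and exon 8 of 15 in Srpk2. These were identical at 19 of 26 positions (73.1%), and capitals mark the other 7.
Srpk1 exon 9, chr17:28600869-28600894, minus strand: tCagCacTgctccacagcCTaaGccA
Srpk2 exon 8, chr5:23526790-23526815, minus strand: tGagTacGgctccacagcAAaaAccT

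The exon of Srpk2 just before it, exon 7, ends at either of 2 donors. Its longer form, of 166 nt, is shown with the 27 nt between the donors in capitals.
Srpk2 exon 7, chr5:23527897-23528062, minus strand: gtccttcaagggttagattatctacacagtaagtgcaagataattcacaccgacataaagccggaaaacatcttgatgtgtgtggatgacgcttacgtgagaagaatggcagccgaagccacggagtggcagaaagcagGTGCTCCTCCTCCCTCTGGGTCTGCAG

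The level of each kinase was compared per length, in cRPKM. Srpk1 was the most abundant, with 36.56 and 38.59 cRPKM in siControl and 42.01 and 43.49 cRPKM in siArglu1. Clk1 followed at 36.44 and 37.13 cRPKM in siControl and 27.73 and 25.68 cRPKM in siArglu1. Clk4 had 27.01 and 28.1 cRPKM in siControl and 20.63 and 18.81 cRPKM in siArglu1. In Clk1 and Clk4 both siControl libraries were above both siArglu1 libraries, whereas in Srpk1 they were below.

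Clk3 (15.13 to 18.26 cRPKM) and Clk2 (14.72 to 18.97 cRPKM) had the same mean of 16.7 cRPKM. Srpk2, the SRPK paralog prominent in brain, had 14.66 and 14.27 cRPKM in siControl and 8.79 and 9.57 cRPKM in siArglu1. Dyrk1b, the close paralog of Dyrk1a, had 4.46 to 5.65 cRPKM. Srpk3, a kinase of skeletal and cardiac muscle, had 8 and 5 reads in siControl and 4 and 2 in siArglu1, at most 0.06 cRPKM, and was not compared. Over the 4 libraries, siControl and siArglu1 together, the ranges of Srpk1 and Clk1, of Clk1 and Clk4, and of Clk3 and Clk2 overlapped. Within each library, however, Srpk1 was above Clk1 (by little in siControl Veh) and Clk1 above Clk4. Clk3 and Clk2 changed order between libraries and did not differ in level beyond their spread. The ranges of Clk4 and Clk3, Clk2 and Srpk2, Srpk2 and Dyrk1b, and Dyrk1b and Srpk3 did not overlap.

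**Figure D1:**
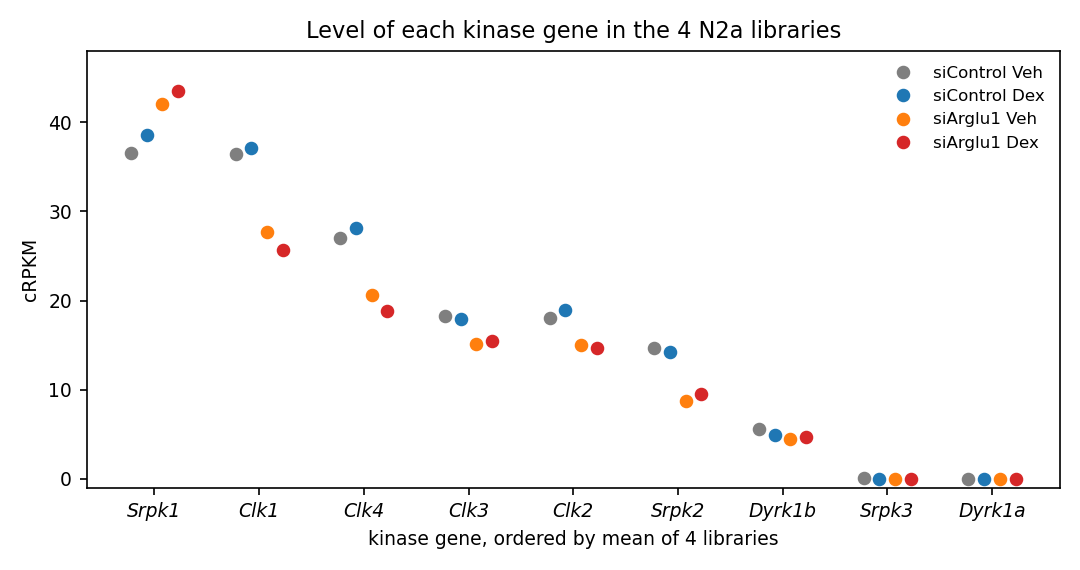
Level in cRPKM of the 9 kinase genes in each of the 4 N2a libraries, 1 point per library, ordered by the mean of 4. Srpk1 sits at 36.56 to 43.49 cRPKM and Dyrk1a at 0, and every gene with reads except Srpk1 has both siArglu1 points below both siControl points.

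Dyrk1a, a dosage-sensitive kinase of brain development, was listed at 0 cRPKM in all 4 libraries, with its read count left blank. A blank was read as 0, since the table holds no read count of exactly 0 and no blank has a cRPKM above 0. A count of 0 allows up to 3 reads, or 0.0347 to 0.0454 CPM (counts scaled to library depth). All 5 of its splicing events had the score N, and its alternative splice sites had 0 junction reads in each library. The stretch without reads included a neighbour on chromosome 16. Dscr3, between Ttc3 and Dyrk1a, was likewise blank at 0 cRPKM in all 4 libraries and the score N for all of its 3 events. Ttc3, a ubiquitin ligase gene on the far side of Dscr3, had 7557 to 11026 reads, but its last splicing events had no coverage.

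Within Ttc3, the exon at chr16:94669606-94669755 (mm9) was covered at the highest score, SOK, in all 4 libraries. The next event, an acceptor of the exon ending at 94676130, had the score N in all 4, as did the other 5 of the last 6 Ttc3 events. Beyond Dyrk1a, Kcnj6 had 12 to 27 reads and Ets2 had 4317 to 7541 reads. The edge lay at the same Ttc3 interval in siControl and in siArglu1. Why Dyrk1a was listed at 0 was not tested.

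**Figure D2:**
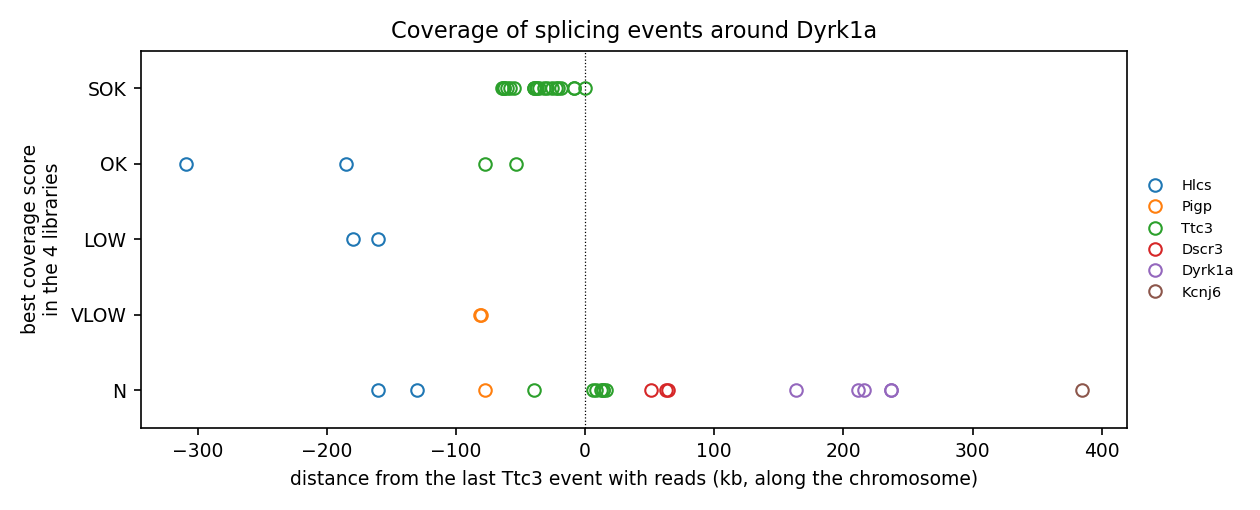
Best coverage score in the 4 libraries (N, VLOW, LOW, OK, SOK, from fewest to most junction reads) of splicing events around Dyrk1a, plotted by distance in kb from the last Ttc3 event with reads. The 6 Ttc3 events after it, all 3 events of Dscr3 and all 5 of Dyrk1a sit at N.

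The first comparison asks what Arglu1 knockdown did to the kinases. In a fit over all 4 libraries with terms for knockdown and for Dex (edgeR's quasi-likelihood test, 1 residual degree of freedom, adjusted over 12497 genes), Clk1, Clk2, Clk3, Clk4 and Srpk2 fell, Srpk1 rose and Dyrk1b did not pass. These 6 calls of 7 stand beside 61.6% of all genes called for knockdown in either direction, and the 5 calls that were lower beside 30.9% called lower. The fit assumes that knockdown and Dex act independently, and its p-values do not measure the spread between cultures. Changes were small: no kinase reached 0.81 on the log2 scale, the size used for knockdown, in vehicle or in Dex, where 15.8% and 12.1% of all genes did. In bulk RNA, fewer expressing cells and less RNA per cell cannot be told apart.

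Srpk2 had the largest fitted fall among the kinases, although in Dex alone Clk4 was level with it. Its reads were 5382 in siControl Veh and 3252 in siArglu1 Veh, a log2 ratio of −0.70 (95% counting interval −0.77 to −0.64). In Dex they were 5647 and 4601, a log2 ratio of −0.58 (−0.64 to −0.53). The fitted log2 change was −0.64 with an adjusted p of 1.37e-12 by edgeR, lower in both pairs. The Srpk2 level in siArglu1 was thus 61.4% of siControl in vehicle and 66.7% in Dex.

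Clk1 and its closest paralog Clk4 gave nearly the same ratios. Clk1 had 4165 and 4575 reads in siControl Veh and Dex, and 3195 and 3845 in siArglu1 Veh and Dex. Its log2 ratios were −0.36 (−0.43 to −0.29) in vehicle and −0.54 (−0.60 to −0.48) in Dex, with an adjusted p of 1.08e-06 by edgeR. Clk4 had 3360 and 3769 reads in siControl and 2587 and 3065 in siArglu1. Its log2 ratios were −0.35 (−0.43 to −0.28) and −0.59 (−0.66 to −0.52), with an adjusted p of 4.33e-07 by edgeR. For both genes the siArglu1 libraries lay below the siControl libraries in each treatment. Reads that fit Clk1 and Clk4 equally well could be assigned to either, and the sources used here do not say how such reads were counted.

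Clk2 and Clk3 moved less. Clk2 had 2506 and 2844 reads in siControl and 2103 and 2682 in siArglu1, with log2 ratios of −0.23 (−0.31 to −0.15) and −0.37 (−0.45 to −0.30), and an adjusted p of 0.00199 by edgeR. Clk3, with 2395 and 2000 reads in vehicle and 2528 and 2664 in Dex, had log2 ratios of −0.24 (−0.32 to −0.15) and −0.21 (−0.29 to −0.13). Its adjusted p was 0.0246 by edgeR and 0.0774 by DESeq2 in the same design, so that its call depended on the tool. Raw reads of Clk3 in the Dex pair ran opposite to the ratio because the siArglu1 Dex library was the deepest.

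Srpk1 was the exception in direction. It had 10425 and 12071 reads in the vehicle pair (log2 ratio 0.23, 0.20 to 0.27) and 11861 and 16239 in the Dex pair (0.16, 0.13 to 0.20). The adjusted p was 0.0344 by edgeR and 0.0737 by DESeq2, so this call too was lost with DESeq2. Dyrk1b had 922 and 734 reads in vehicle (−0.31, −0.45 to −0.17) and 865 and 995 in Dex (−0.09, −0.22 to 0.05), with an adjusted p of 0.0931 by edgeR. The interval in Dex spanned 0 and that in vehicle did not.

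**Figure D3:**
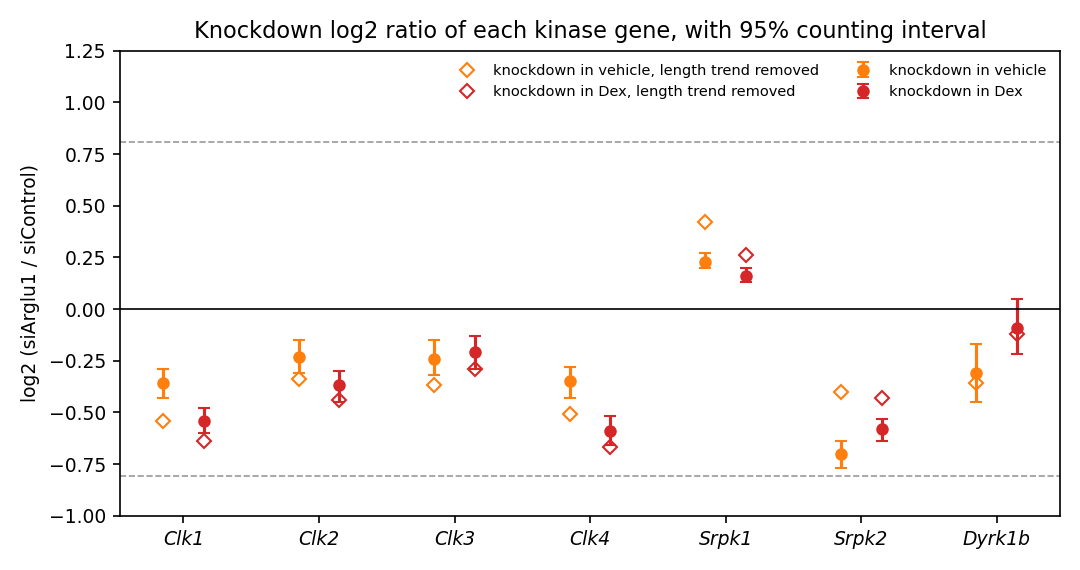
Log2 ratio of siArglu1 to siControl for the 7 kinase genes with at least 75 reads, in vehicle and in Dex (filled points, bars are the 95% counting interval) and after the trend on mappable length was removed (open diamonds). Dashed lines mark 0.81 either way, which no point reaches, and Srpk1 alone lies above 0.

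The log2 ratio of knockdown was lower for genes of greater mappable length. Over 11539 genes its rank correlation (Spearman) with length was −0.421 in vehicle and −0.246 in Dex. The ratio of Dex to vehicle followed length too, at −0.177 in siControl and 0.582 in siArglu1. The values −0.421 and 0.582 both use the siArglu1 Veh library. Whether the trend comes from the knockdown or from single libraries was not tested. Among the 1154 genes with the shortest mappable length (median 0.664 kb) the median log2 ratio in vehicle was 0.33, and among the 1154 longest (median 7.25 kb) it was −0.44. In Dex these medians were 0.14 and −0.22. The kinases spanned this range, from 1.73 kb for Clk1 and 1.88 kb for Clk4 to 4.32 kb for Srpk1 and 5.56 kb for Srpk2. With the length trend removed, the log2 ratio of Srpk2 was −0.40 in vehicle and −0.43 in Dex, that of Clk1 −0.54 and −0.64, and that of Clk4 −0.51 and −0.67. Srpk2 then had a smaller fall than Clk1 and Clk4. Srpk1 stood at 0.42 and 0.26. All 7 kinases kept their direction in both pairs.

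After that step, 14.1% of genes in vehicle and 7.3% in Dex had a lower ratio than Clk4. For Srpk2 the shares were 18.6% and 15.2%. At the other end, 83.2% and 73.7% of genes had a lower ratio than Srpk1. The kinases thus lay within the spread of all genes.

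**Figure D4:**
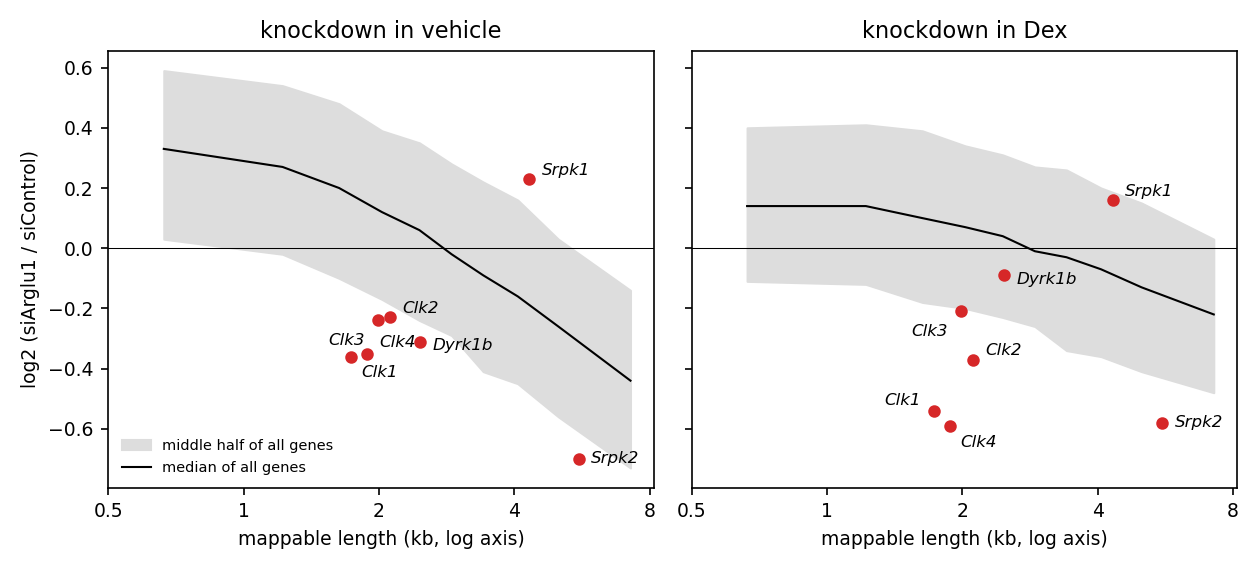
Knockdown log2 ratio against mappable length in kb (log axis) in vehicle (left) and Dex (right), with the median (line) and the lower to upper quartile (band) of all genes in 10 length classes and the 7 kinases as points. All kinases but Srpk1 lie below the median line, which runs between 0.33 and −0.44 in vehicle and between 0.14 and −0.22 in Dex.

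The knockdown ratio of some kinases differed between Dex and vehicle by more than counting error. The log2 ratio was lower in Dex by −0.23 for Clk4 (−0.33 to −0.13), by −0.18 for Clk1 (−0.27 to −0.09), by −0.14 for Clk2 (−0.26 to −0.03) and by −0.07 for Srpk1 (−0.12 to −0.02). It was higher in Dex by 0.12 for Srpk2 (0.04 to 0.20) and by 0.22 for Dyrk1b (0.03 to 0.41). For Clk3 the difference was 0.02 (−0.09 to 0.14). The order of the pairs turned for Srpk2 once the length trend was removed, with −0.40 in vehicle and −0.43 in Dex. Srpk1 then had 0.42 in vehicle and 0.26 in Dex, further apart than on the first scale. The pairs of Clk4 (−0.51 and −0.67), Clk1 (−0.54 and −0.64) and Clk2 (−0.34 and −0.44) came closer together, still lower in Dex. Those of Clk3 (−0.37 and −0.29) and Dyrk1b (−0.36 and −0.12) moved slightly further apart. With 1 library per group the spread between cultures is not part of these intervals, and the slope of the length trend also differed between the pairs.

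The second comparison asks whether 4 h of Dex changed the kinases. No kinase reached a log2 ratio of 1 in siControl or in siArglu1, where 0.464% and 0.392% of all genes did. In siControl the ratios ran from −0.19 for Dyrk1b to 0.09 for Srpk1, and in siArglu1 from −0.17 for Clk4 to 0.09 for Srpk2. With the length trend removed, the ratios in siArglu1 changed sign for Srpk2 (−0.03) and for Srpk1 (0.02 to −0.06). The fit over 4 libraries called 0 of 7 kinases for Dex by edgeR and 0 by DESeq2, with 0 at an unadjusted p under 0.05 by edgeR, beside 1.04% of all genes called by edgeR. All 7 adjusted p-values were 0.999 by edgeR. The widest ratio, that of Dyrk1b in siControl, rested on 922 reads in vehicle and 865 in Dex (−0.33 to −0.06).

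The pattern of Srpk2, the kinase with the largest mean knockdown ratio, was set against the 8437 genes with a mean of at least 5 cRPKM, over the 4 libraries. The nearest were Celf4 at a distance of 0.016 on the log2 scale, a gene whose symbol is written as a date, Mar-06, at 0.020, and Gm9833 at 0.021. Celf4, which encodes a neuronal RNA-binding protein, had log2 ratios of −0.68 in vehicle and −0.59 in Dex. These distances rest on 4 libraries.

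The genes around the kinases were read from fixed lists, which had been chosen with earlier results of these data known. In them Ppp2cb and Dcaf7 met the rule for naming, and the others were named after their values were seen. Of 13 SR protein and TRA2 genes, the substrates of the kinases, 12 were compared, Srsf12 having 1 to 5 reads. None of the 12 reached 0.81 in vehicle or in Dex, where 15.8% and 12.1% of all genes did. Their median log2 ratio was −0.02 and −0.17, beside 0.0038 and 0.0031 over all genes. With the length trend removed, an alternative chosen after seeing the data for these lists, the medians were −0.16 and −0.29. Srsf4 had the lowest ratios of the list, −0.59 in vehicle and −0.62 in Dex. With Dex in siArglu1 all 12 ratios were below 0, with a median of −0.11, beside −0.00079 over all genes. The lowest, −0.22, was that of Srsf3. With the length trend removed the median of the 12 was −0.06, with 11 below 0 and Srsf4 at 0.04.

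Of the 11 other CMGC kinases, Hipk1, a nuclear kinase related to the DYRKs, reached 0.81 in vehicle (log2 ratio −0.89) and not in Dex (−0.76). That is 1 of 11 in vehicle, beside 15.8% of all genes, and 0 of 11 in Dex, beside 12.1%. The list had a median of −0.18 in vehicle and −0.09 in Dex. With the length trend removed the medians were −0.23 and −0.19. These leave out Hipk4 (log2 ratios 0.14 and 0.31, 15 to 25 reads), which had no value on that scale. Prpf4b, a kinase of the spliceosome, had −0.64 and −0.54, and Cdk13, a kinase of RNA polymerase II, had −0.78 and −0.64. Hipk1 and Cdk13 were at −0.44 and −0.38 in vehicle once the length trend was removed.

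Of 7 phosphatase genes, 1 was past 0.81 in both pairs, beside 15.8% of all genes in vehicle and 12.1% in Dex. The share of all genes past it in both pairs was not counted. The phosphatase gene was Ppp2cb, a catalytic subunit of protein phosphatase PP2A. Its reads were 13825 and 14931 in siControl and 3317 and 3829 in siArglu1. The log2 ratios were −2.04 in vehicle and −2.25 in Dex, close in size to those of Arglu1 itself (−1.92 and −2.15). Its paralog Ppp2ca had −0.50 and −0.61, and the other 5 phosphatases lay between −0.41 and 0.41. The list median was −0.31 in vehicle and −0.34 in Dex, or −0.11 and −0.19 with the length trend removed.

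Of 9 partners of the kinases or SR proteins, 1 was past 0.81 in both pairs. In vehicle 15.8% of all genes were past it, and in Dex 12.1%. The partner was Dcaf7, a WD-repeat scaffold that binds DYRK1A and DYRK1B. It had 17560 and 18510 reads in siControl Veh and Dex and 9118 and 12788 in siArglu1 Veh and Dex. Its log2 ratios of −0.92 and −0.82 became −0.61 and −0.67 without the length trend. Tnpo3, which imports phosphorylated SR proteins, had −0.09 and −0.02. The medians of the partners were −0.09 in vehicle and −0.08 in Dex, or −0.15 in each with the length trend removed. With Dex, no gene of any of the 4 lists reached a log2 ratio of 1, beside 0.464% of all genes in siControl and 0.392% in siArglu1.

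The third comparison turns to the splicing of the kinases' own transcripts. Of 51 events, 1 reached 15 PSI with the knockdown in vehicle and 3 in Dex, where 1.96% and 1.52% of all events did. With Dex, 0 of 51 reached 15 PSI in siControl and 3 in siArglu1, where 0.719% and 0.948% of all events did. The events were not tested, and the cassette exon files give coverage scores in place of read numbers, so their PSI values carry no interval.

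Exon 7 of Clk1 (chr1:58473857-58474023, mm9), inside the kinase domain's coding sequence, was the best covered event past 15 PSI, with the score SOK in all 4 libraries. Its PSI was 91.3 and 93.8 in siControl and 77.8 and 75.9 in siArglu1. Both siArglu1 libraries were below both siControl libraries, with differences of −13.5 PSI in vehicle and −17.9 PSI in Dex. Leaving this exon out shifts the reading frame, and a stop codon follows 7 nt after the new junction, 469 nt before the last exon junction. An annotated transcript without the exon is classed as a target of nonsense-mediated decay, the pathway that degrades mRNAs with an early stop.

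Exon 7 of Clk2 (chr3:88977299-88977465, mm9) had a PSI of 94.0 and 93.4 in siControl and 90.7 and 86.0 in siArglu1. The differences, −3.2 PSI in vehicle and −7.4 PSI in Dex, were under the 15 PSI used. This exon, exon 4 of Clk1 and the 26-nt exons are described as counterparts of their paralogs and were singled out with their values known. Without it, the stop codon also falls 7 nt after the new junction and 469 nt before the last one.

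Exon 4 of the CLK genes, the exon known for self-regulation, differed widely between paralogs in control cells but did not reach 15 PSI in any comparison. In siControl Veh its PSI was 87.5 in Clk2, 77.5 in Clk3, 62.1 in Clk1 and 37.5 in Clk4. The exon of Clk4 is 93.4% identical to that of Clk1. By these values most Clk4 transcripts left it out, while most Clk1 transcripts included theirs. These PSI levels were all scored SOK. How reads that fit exon 4 of both Clk1 and Clk4 were counted is not stated, so this contrast carries the same limit as their gene counts.

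With the knockdown, exon 4 of Clk2 had a PSI of 78.0 in siArglu1 Veh and 81.5 in siArglu1 Dex, against 87.5 and 90.5 in siControl, differences of −9.5 and −9.0 PSI. Exon 4 of Clk3 ran the other way, with 82.3 and 77.3 in siArglu1 against 77.5 and 72.3 in siControl. The Dex libraries differed from the vehicle libraries by about as much at this exon, by −5.1 PSI in siControl and −5.0 PSI in siArglu1. In Clk1 the PSI was 60.9 and 59.1 in siArglu1 against 62.1 and 64.8 in siControl. In Clk4 it was 28.5 in siArglu1 Veh but 35.9 in siArglu1 Dex, near the 37.5 and 36.7 of siControl. Clk2 and Clk3 thus differed in direction in these libraries, but all of these differences were under 15 PSI and carry no interval.

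Without exon 4 the frame ends 18 nt after the new junction in both Clk1 and Clk4, 9 nt after it in Clk2 and 87 nt after it in Clk3. GENCODE lists at least 1 transcript of the nonsense-mediated decay class without exon 4 for each of the 4 genes. At the acceptors of Clk2 exon 4, the longer form made up 65.2% (95% exact binomial interval 58.2 to 71.7, 201 reads) and 62.0% (55.1 to 68.5, 213 reads) in siControl, and 56.2% (47.2 to 65.0, 128 reads) and 61.7% (54.8 to 68.3, 209 reads) in siArglu1. These 4 intervals overlap.

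**Figure D5:**
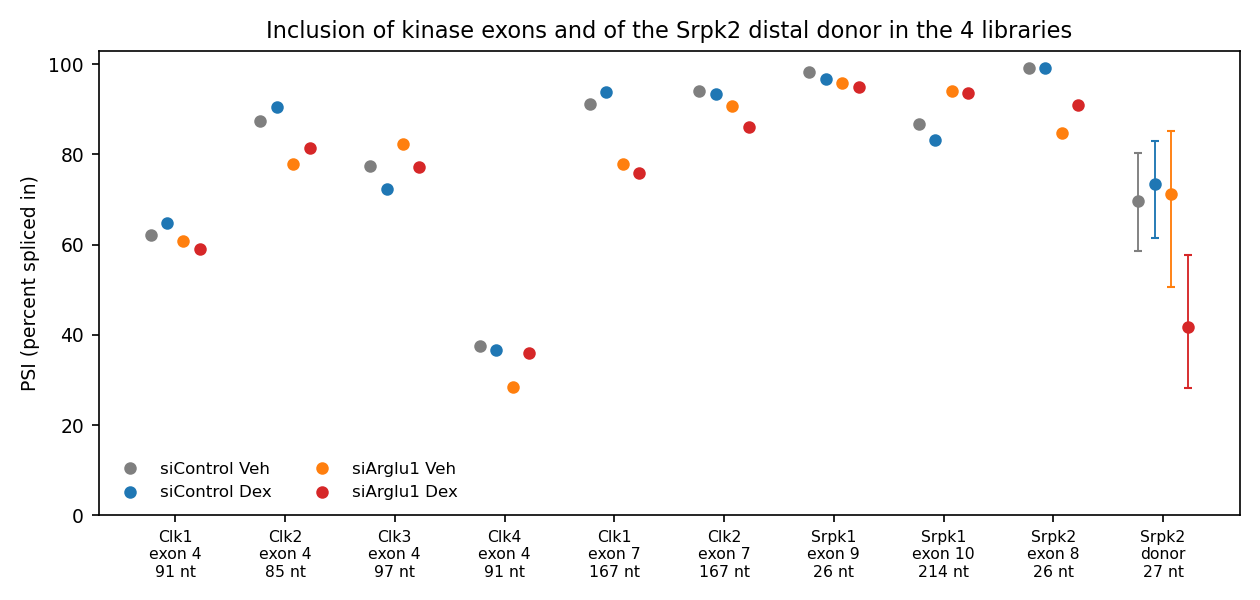
PSI of 9 coding exons of the CLK and SRPK genes and of the longer donor of Srpk2 exon 7 in the 4 libraries, 1 point per library. Bars on the Srpk2 donor are 95% exact binomial intervals, the exons having no read numbers. Clk1 exon 7 lies at 91.3 and 93.8 in siControl and at 77.8 and 75.9 in siArglu1.

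Srpk2 held all other events past 15 PSI. The longer donor of its exon 7 was used at a PSI of 69.8 (58.5 to 80.3, 74 reads) and 73.4 (61.4 to 83.1, 71 reads) in siControl and 71.3 (50.6 to 85.3, 30 reads) in siArglu1 Veh. In siArglu1 Dex it was 41.7 (28.3 to 57.8, 47 reads). This library alone stood apart, by −31.8 PSI from siControl Dex and −29.6 PSI from siArglu1 Veh. Its interval lay below those of both siControl libraries and overlapped that of siArglu1 Veh. The 27 nt between the donors keep the reading frame.

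The other Srpk2 events past 15 PSI were a pair of exons in the same 5′ intron, neither matched to a GENCODE exon, and both thinly covered. A match needs both listed flanks to be the neighbouring exons of 1 transcript. A missing match therefore does not show that an exon is unannotated. The 64-nt exon at chr5:23122145-23122208 had a PSI of 57.1 and 58.7 in siControl and 70.6 and 37.6 in siArglu1, with the score VLOW in siArglu1 Veh and OK elsewhere. Its junction reads were marked as unbalanced in both siArglu1 libraries and in neither siControl library. The differences past 15 PSI for this exon were −21.1 with the knockdown in Dex and −33.0 with Dex in siArglu1. The 146-nt exon at chr5:23135150-23135295 had 0 and 8.1 in siControl and 39.1 and 10.0 in siArglu1, with the score N, the lowest, in siArglu1 Veh. The differences past 15 PSI for the 146-nt exon, 39.1 with the knockdown in vehicle and −29.1 with Dex in siArglu1, both rest on that 1 library.

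Exon 8 of Srpk2 (chr5:23032608-23032633, mm9), the 26-nt exon shown above, came just under 15 PSI and is named here after its values were seen. Its PSI was 99.2 in both siControl libraries, 84.7 in siArglu1 Veh and 90.9 in siArglu1 Dex, differences of −14.6 and −8.3 PSI. The score was OK in siArglu1 Veh and SOK in the other libraries. Without this exon a stop codon follows 14 nt after the new junction, and an annotated transcript that lacks it is of the nonsense-mediated decay class. The gene's total level was lower in the same libraries (8.79 and 9.57 cRPKM against 14.66 and 14.27), and whether the exon and the level are linked was not tested.

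In Srpk1 the paralogous 26-nt exon had a PSI of 98.3 and 96.7 in siControl and 95.9 and 94.9 in siArglu1, differences of −2.4 and −1.8 PSI. The next exon of Srpk1, exon 10 of 214 nt (chr17:28737188-28737401, mm9), ran in the opposite direction. Its PSI was 86.7 and 83.2 in siControl and 94.1 and 93.6 in siArglu1, higher by 7.4 and 10.4 PSI. The files mark the junction reads on its opposite sides as unbalanced in all 4 libraries. A transcript without exon 10 is annotated as a decay target as well. The PSI of exon 10 and the gene's level were thus both higher in the siArglu1 libraries, and whether they are linked was not tested.

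Dyrk1b had 5 events compared, and none reached 15 PSI. The widest was exon 7, of 147 nt, with a PSI of 90.7 and 92.2 in siControl Veh and Dex and 89.5 and 96.7 in siArglu1 Veh and Dex. The length of this exon is a multiple of 3. The single cassette event of Srpk3 had no PSI in any library.

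The cassette exons listed for these kinases were also read for their frame, which the choice of genes did not use. Some of them were included almost always, such as the 67-nt exon of Clk3 with a PSI of 99.3 to 100.0. Of the 30 cassette events compared, 24 (80%) had a length that is not a multiple of 3, beside 60% of the 32675 cassette events of all genes. Among the 18 that lay wholly in the coding sequence of a complete GENCODE transcript, 14 shifted the frame. In all 14 the stop codon then fell more than 50 nt before the last exon junction, the usual distance for nonsense-mediated decay. Of these 14 exons, 8 were left out of at least 1 annotated transcript, and in 7 such a transcript was of the nonsense-mediated decay class. Several events share a gene, and the counts from coding sequence were not made over all genes, so they are a description of the listed exons.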

How the data were processed

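PolyA RNA-seq of 4 pooled N2a samples (1 library per group) was used as deposited. The submitters' processing notes name Bowtie and mm9 without versions, and the study's methods name vast-tools for PSI. The authors deposited read counts per gene, cRPKM (an RPKM corrected for mappable positions, depth included) and PSI in percent with coverage scores; 2 columns of the authors' expression ratios were not used. Blank read counts were taken as 0, since the table holds 0 read counts of exactly 0 and 0 blanks with a cRPKM above 0.

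Reads were scaled by TMM factors (0.984 to 1.01) in edgeR 4.0.16 with R 4.3.3, and log2 ratios used a prior count of 1. With 1 library per group no pair was tested: sizes of 0.81 (knockdown), 1 (Dex) and 15 PSI were used, with exact conditional intervals at 95% from the reads or exact binomial intervals of a PSI, all for counting error only. The additive edgeR fit (Benjamini-Hochberg at 0.05) treats the pairs as replicates of the knockdown and so measures the spread between these libraries. Alternatives used DESeq2 1.42.0, cRPKM and a lowess on mappable length (span 0.3). Code was tested on simulated data. Named items were the 9 kinases, Arglu1, list genes past 0.81 in both pairs, kinase events past 15 PSI or with the widest range, and the 3 genes nearest to the kinase with the largest mean ratio. Other items named were chosen after their values were seen. Exon sequences are from GENCODE M21 (GRCm38); no coordinates were converted. The members and lists were chosen with earlier results of these data known.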

Additional observations from a re-analysis of the deposited data

Results flagged for a closer look

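A pair of Srpk2 events had knockdown differences of opposite sign in vehicle and in Dex, with at least 1 of them past 15 PSI. For the 64-nt exon in the 5′ part of the gene the difference was 13.4 PSI in vehicle and −21.1 PSI in Dex. For the longer donor of exon 7 it was 1.5 PSI in vehicle and −31.8 PSI in Dex. Each group is 1 library, so the difference between the treatments was not tested. The siArglu1 Veh library, with 30 junction reads at the donor and the score VLOW at the 64-nt exon, had the thinnest coverage of both events.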

How the results depend on the processing

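The 7 compared kinases kept the direction of both knockdown ratios under all 7 recalculations of the log2 ratio. Of 196 recomputed ratios, 183 lay inside the counting interval of the reported value, and the other 13 all came from removing the length trend; 2 of them, Srpk1 (0.02 to −0.06) and Srpk2 (0.09 to −0.03) with Dex in siArglu1, had the other sign. Without a minimum on reads, 1 kinase (Srpk3, with 2 to 8 reads per library) passed the size used with the knockdown in vehicle, with the knockdown in Dex and with Dex in siArglu1. At a threshold of 0.5 the knockdown counts were 1 in vehicle (Srpk2) and 3 in Dex (Clk1, Clk4 and Srpk2). Of all genes, 20.5% were at least as far from 0 as Srpk2 in vehicle, and 25.9% as far as Clk1 in Dex. The fit called 6 kinases for knockdown by edgeR, 6 with DESeq2 size factors, 5 without a read minimum (Clk3 was lost) and 4 by DESeq2. The share of all genes called was counted for the first of these only, at 61.6%.

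For splicing, the knockdown count in vehicle, 1 as reported, was 2 without a coverage minimum, 4 at 10 PSI, and 0 with scores of OK or better in all 4 libraries or without complex or unbalanced exons. In Dex, 3 as reported, it was 4 without a coverage minimum or at 10 PSI, and 1 at 25 PSI. It was 2 with scores of OK or better in all 4 libraries or without complex or unbalanced exons. The count for Dex in siArglu1, 3 as reported, was 4 without a coverage minimum. It was 1 with OK or better in all 4 or without complex or unbalanced exons. The count for Dex in siControl was 1 without a coverage minimum. The shares of all events were not counted under these alternatives, so the counts show only how the reported ones move. No paired analysis was possible because each group holds 1 library and the replicate number gives no block; the fit with terms for knockdown and Dex already matches the libraries by treatment. Depth limits Srpk3, with 2 to 8 reads per library, and the Srpk2 donor, with 30 to 74 junction reads.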
